A study of Mus musculus with 12 samples.

Results

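The expression changes of mouse embryonic stem (ES) cells after knockdown (KD) of Chd4 were measured by comparing the 2 arrays labelled Chd4 KD with the 2 labelled EGFP KD, the control. These 4 arrays were chosen by their labels from a series of 12, which also holds 2 arrays for each of 4 other factors (Tet1, Mbd2, Mbd3 and Dnmt1). All cells were E14 ES cells grown without feeders on gelatin in medium with serum and LIF, and RNA was taken 48 hr after transfection. Both groups received esiRNAs, pools of short interfering RNAs cut from a longer RNA, against Chd4 or against EGFP, a jellyfish gene that these cells lack. A KD of this kind is transient and partial, acts in a single cell line, and lowers the mRNA in a whole dish, so every value is a mean over a population. The study compares KDs of DNA-modifying and NuRD factors to ask how their effects on gene expression relate. Each value below is a level or a difference on the log2 scale. The level is the log2 of a probe's background-corrected intensity divided by the 75th percentile of its array, so that a level of 0 lies at that percentile, and levels of different probes are not compared. Levels were not set below a floor of -4.86, the highest over the arrays of each array's dimmest signal well above background, and values at the floor have no order among themselves.

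Chd4 is an ATP-driven chromatin remodeler and the motor subunit of NuRD, a complex that joins nucleosome remodeling to histone deacetylation. NuRD is recruited to promoters and enhancers, in part through Mbd2 or Mbd3, and is best known for restraining transcription. In ES cells it is known to dampen genes of the pluripotency network and to act on genes of other lineages.

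Between 80.9% and 95.2% of the 39429 probes were well above background on these 4 arrays. The arrays lay on 3 slides. EGFP KD replicate 1 was on slide 1, EGFP KD replicate 2 and Chd4 KD replicate 1 shared slide 2, and Chd4 KD replicate 2 was on slide 3, which held no control. All 6 groups entered the fit so that they shared 1 estimate of the spread, although Tet1 mRNA was low on an array labelled Mbd2 KD (-1.79 from the EGFP KD mean) and not on 1 of the 2 labelled Tet1 KD (-0.02), and Mbd2 mRNA was low on neither array labelled Mbd2 KD (-0.08 and -0.07). Counts are therefore also given without those 4 arrays. ES cell markers were present on all 4 arrays. Sox2 stood at 2.41 and 2.32 in EGFP KD and at 2.17 and 2.56 in Chd4 KD, Pou5f1, which encodes Oct4, was saturated on all 4, and the only probe tested for Nanog lay near background in both groups, between -4.86 and -4.10.

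Chd4 itself was read by 1 probe. Its level was 4.13 and 3.97 in EGFP KD and 2.50 and 3.04 in Chd4 KD, so both Chd4 KD arrays lay below every other array of the series, where it ranged from 3.85 to 4.46. Chd4 was thus 2.43-fold lower, a log2 difference of -1.28 with a standard error of 0.24 and a limma adjusted p of 0.042. The difference was -1.46 between the arrays that share slide 2, and -1.45 with slide as a block (limma adjusted p = 0.0128). The call was lost, with the direction kept, when any of the 4 arrays was left out (limma adjusted p between 0.0688 and 0.218), without the Tet1 KD and Mbd2 KD arrays (adjusted p = 0.156) and with quantile normalization (adjusted p = 0.103). From whole dishes, a lower level in every cell and a loss in some of the cells cannot be told apart.

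**Figure D1:**
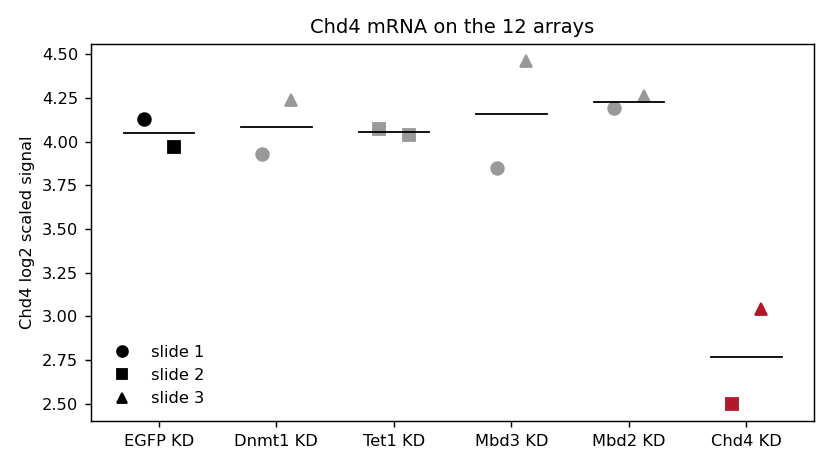
Chd4 log2 scaled signal (vertical axis) on each of the 12 arrays by group, with symbols for slides 1 to 3 and a line at each group's mean of 2 arrays. The Chd4 KD arrays stand at 2.50 and 3.04, below all others, which lie between 3.85 and 4.46.

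Of 29839 genes tested, 952 were called at a Benjamini-Hochberg adjusted p under 0.05 in limma, a share of 3.19%. The level was higher in Chd4 KD for 583 (1.95%) and lower for 369 (1.24%), a share of rises among calls of 61.2% that became 49.5% under normexp background correction with quantile normalization. Rises were also larger. Among called genes the median log2 fold change was 1.26 for rises and -0.99 for falls, 406 rises and 183 falls reached 2-fold, and 85 rises and 9 falls reached 4-fold. Both Chd4 KD arrays lay on the same side of both EGFP KD arrays for 947 of the called genes and for 11294 genes in all (37.8%), and an array was missing for the other 5. Without the Tet1 KD and Mbd2 KD arrays 509 genes were called, with any of the 4 arrays left out 318 to 505, and in a limma fit to only the 4 arrays none (smallest adjusted p 0.163, 3765 genes with an unadjusted p under 0.05). With slide as a block 1294 were called, of which 791 were among the 952.

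**Figure D2:**
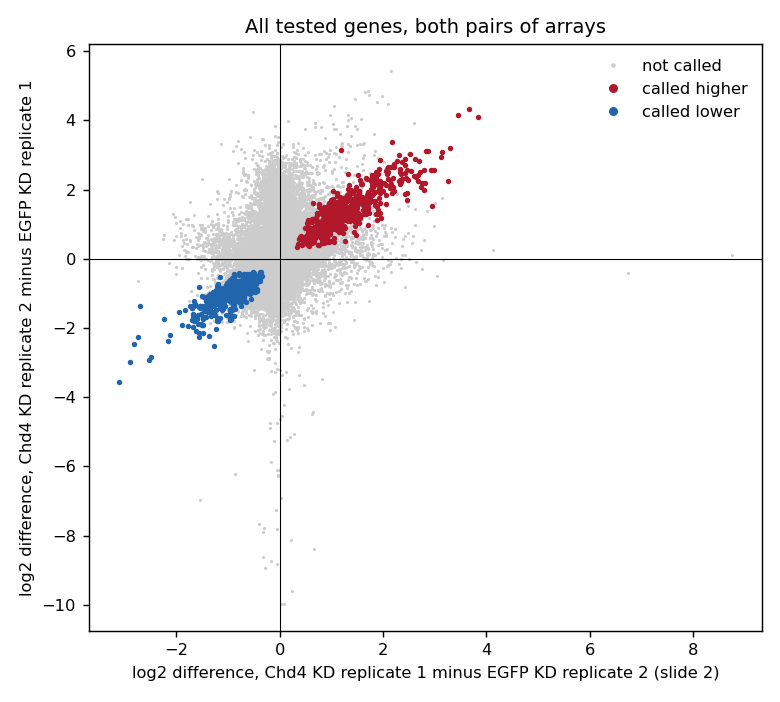
Log2 difference between Chd4 KD replicate 2 and EGFP KD replicate 1 (vertical axis) against that between the 2 arrays of slide 2 (horizontal axis) for tested genes measured on all 4 arrays, with genes called higher in red and lower in blue. Called genes lie in the upper right and lower left, with the same sign in both pairs of arrays. Genes were called from these same arrays, so a shared sign is largely built in and is no separate evidence.

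The 15 largest rises ran from 2.55 to 3.99. S100a14, a calcium-binding protein of epithelia, stood at -3.47 and -3.17 in EGFP KD and at 0.67 and 0.62 in Chd4 KD, 15.6-fold higher (log2 difference 3.96 with a standard error of 0.27, adjusted p = 0.00124 in limma). Slc6a13, a GABA and taurine transporter, went from -4.36 and -3.37 to 0.29 and -0.04, a change of 3.99 (standard error 0.73, adjusted p = 0.0363 in limma) whose call was lost without the Tet1 KD and Mbd2 KD arrays. The keratin Krt19, a marker of simple epithelia and trophoblast, went from -0.33 and -0.06 to 2.12 and 3.04 (log2 fold change 2.77, adjusted p = 0.0175). Each of these genes reached a level above the 75th percentile on at least 1 Chd4 KD array. Krt23, another epithelial keratin, rose 7.99-fold from -4.22 and -3.76 to -0.89 and -1.09. Foxj1, the master transcription factor of motile cilia, rose by 2.98 from -3.92 and -3.70 to -0.86 and -0.81. Aoc1, a diamine oxidase that breaks down histamine, rose by 2.76, from -4.42 and -4.22 to -1.60 and -1.52. In each of these 3 genes the arrays of a group lay far closer together than the groups did. Prph (peripherin, an intermediate filament of peripheral neurons) rose from -1.66 and -1.44 to 0.86 and 1.33 (2.65), and Dusp26, a phosphatase found in neural tissue, from -2.44 and -2.28 to 0.43 and 0.08 (2.62). Adssl1, the muscle form of adenylosuccinate synthase, rose by 2.65 (-2.21 and -1.88 to 0.55 and 0.66), and Adam8, a membrane metalloprotease of leukocytes, by 2.56 (-3.37 and -3.38 to -0.96 and -0.67). Wdfy4, which acts in antigen presentation by dendritic cells, rose by 2.75 on the brighter probe, but its second probe differed by -0.10.

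Several of the largest rises lay on the X chromosome. Ctag2l2, of a family of cancer and testis antigens, stood at -4.86 and -4.34 in EGFP KD and at -0.89 and -0.69 in Chd4 KD (log2 fold change 3.81, adjusted p = 0.000902). Tceal3, of the transcription elongation factor A-like family, went from -2.92 and -3.06 to 0.06 and 0.02 (3.03). Rhox2c, a homeobox gene of the reproductive Rhox cluster, went from -2.34 and -2.15 to 0.55 and 0.49 (2.77), and Esx1, a homeobox gene of placenta and testis, from -3.30 and -3.73 to -1.04 and -0.89 (2.55). In these 4 genes the 2 Chd4 KD arrays lay close together. That both lay above both controls was required for the largest rises. Xlr5b, of the X-linked lymphocyte-regulated family, was below background on both EGFP KD arrays and at -1.56 and -1.67 in Chd4 KD, at least 9.46-fold higher (limma adjusted p = 0.00219). After these values were seen, genes with a RefSeq promoter in GRCm38.p6 were counted by chromosome, leaving out 1 autosome that the promoters used here do not cover. Of 632 tested X-linked genes 42 rose (6.65%) and 14 fell (2.22%), against 342 (2.32%) and 257 (1.74%) of the 14751 others. Of the 42, 15 belonged to the Rhox, Xlr and Fthl17 families, and outside them 27 of 606 tested rose (4.46%). The median log2 fold change of X-linked genes was 0.01 and that of the others -0.01.

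The Rhox, Xlr and Fthl17 families, counted whole after the values were seen, rose in 7 of 19, 5 of 7 and 3 of 4 tested members, against 1.95% of all genes, and no member fell. Fthl17f, a ferritin heavy chain-like gene, stood at 1.20 and 1.47 in EGFP KD and at 3.68 and 3.84 in Chd4 KD (2.43), and Fthl17e at 0.10 and 0.12 and at 2.79 and 2.36 (2.46). Rhox13, a germ cell homeobox gene, went from -0.86 and -0.59 to 0.74 and 0.56 (1.37). Members of these families are related copies, so a probe may read several of them and the number of separate genes that rose is uncertain. The promoters, 250 bases before to 50 after the start in RefSeq, show how close the Rhox2 copies are and how genes that moved differ in CpG content. The promoters of Rhox2c and Rhox2e had the same base at 298 of 300 positions (99.3%), and each had the same base as that of Rhox2h at 282. The promoters of Fthl17d and Fthl17e (62.7%) and of Fthl17e and Fthl17f (61.0%) were less alike when aligned. In the promoters printed here, CpG sites are in capitals.
Rhox2c, chrX:37453409-37453708, plus strand: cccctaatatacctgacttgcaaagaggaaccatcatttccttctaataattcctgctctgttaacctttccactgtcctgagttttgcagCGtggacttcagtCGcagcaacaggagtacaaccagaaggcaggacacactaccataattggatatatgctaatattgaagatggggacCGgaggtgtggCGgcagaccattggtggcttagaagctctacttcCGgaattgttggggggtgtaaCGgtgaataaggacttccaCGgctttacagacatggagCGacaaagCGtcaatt
Rhox2e, chrX:37530218-37530517, plus strand: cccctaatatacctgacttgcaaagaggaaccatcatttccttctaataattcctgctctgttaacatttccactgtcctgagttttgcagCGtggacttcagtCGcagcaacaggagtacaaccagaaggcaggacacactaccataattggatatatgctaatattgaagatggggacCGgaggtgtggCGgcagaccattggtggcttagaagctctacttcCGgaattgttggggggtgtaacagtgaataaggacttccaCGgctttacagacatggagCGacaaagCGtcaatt
Esx1, chrX:137120277-137120576, minus strand: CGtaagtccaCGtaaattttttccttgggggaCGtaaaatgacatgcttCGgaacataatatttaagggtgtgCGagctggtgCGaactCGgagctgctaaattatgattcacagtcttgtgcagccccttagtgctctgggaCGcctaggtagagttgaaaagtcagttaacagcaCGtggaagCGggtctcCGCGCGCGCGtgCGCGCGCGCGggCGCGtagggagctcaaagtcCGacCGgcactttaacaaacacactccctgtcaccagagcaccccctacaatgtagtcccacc
Krt23, chr11:99493071-99493370, minus strand: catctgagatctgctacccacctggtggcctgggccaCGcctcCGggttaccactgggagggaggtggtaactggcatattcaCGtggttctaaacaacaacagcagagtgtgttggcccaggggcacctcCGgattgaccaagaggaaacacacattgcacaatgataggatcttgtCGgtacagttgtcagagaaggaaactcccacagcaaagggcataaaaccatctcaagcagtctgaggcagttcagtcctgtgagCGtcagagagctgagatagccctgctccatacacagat
Gbx2, chr1:89931127-89931426, minus strand: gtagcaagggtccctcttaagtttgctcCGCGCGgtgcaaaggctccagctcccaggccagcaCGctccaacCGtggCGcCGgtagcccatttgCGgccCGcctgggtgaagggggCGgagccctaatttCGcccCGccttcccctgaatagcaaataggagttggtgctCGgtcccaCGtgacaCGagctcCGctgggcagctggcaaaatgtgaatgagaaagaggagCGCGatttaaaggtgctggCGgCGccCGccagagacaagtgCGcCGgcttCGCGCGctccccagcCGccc
Cbr3, chr16:93682969-93683268, plus strand: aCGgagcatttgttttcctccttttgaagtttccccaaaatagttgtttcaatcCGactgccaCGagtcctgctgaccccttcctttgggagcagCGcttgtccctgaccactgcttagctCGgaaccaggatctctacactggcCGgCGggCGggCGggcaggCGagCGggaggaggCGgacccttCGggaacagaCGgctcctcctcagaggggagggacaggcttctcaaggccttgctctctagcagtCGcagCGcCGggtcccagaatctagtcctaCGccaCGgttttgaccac

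The first 4 promoters belong to genes that rose and the last 2 to genes that fell. Rhox2c held 9 CpG sites, Krt23 held 6, Esx1 held 24, Gbx2 held 27 and Cbr3 held 19, so a CpG-rich promoter was found on both sides. Over all promoters, those with a CpG observed over expected ratio of at least 0.6 and a GC content of at least 50% were called CpG-rich, which held for 53.3% of the 15383 tested genes with a promoter, 41.4% of the 384 that rose and 63.5% of the 271 that fell. The motif TATAAA, on either strand, was in the promoters of 10.2% of risen, 11.8% of fallen and 13.5% of all genes. These shares describe the letters in these windows, with no test.

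Cbr3, a carbonyl reductase that lowers the toxicity of reactive carbonyls, stood at 4.44 and 4.25 in EGFP KD and at 1.15 and 0.88 in Chd4 KD, a change of -3.33 (standard error 0.13, limma adjusted p = 0.000449) or 10.0-fold lower. Inhbb, the beta B subunit of activin and inhibin, went from 1.71 and 1.95 to -0.85 and -0.76 (-2.64, standard error 0.12, limma adjusted p = 0.000449). Gbx2, a homeobox factor downstream of LIF in naive ES cells, went from 1.48 and 1.15 to -1.34 and -1.36 (-2.66, standard error 0.25, limma adjusted p = 0.00321). All 3 kept the call whichever of the 4 arrays was left out. Nefl, the light neurofilament chain, went from 2.36 and 2.01 to -0.51 and -0.56 (-2.72), and Spink1, a trypsin inhibitor, from 2.20 and 2.41 to -0.33 and -0.07 (-2.50). Polr3gl, an alternative subunit of RNA polymerase III, fell by 2.27 (0.83 and 0.87 to -1.28 and -1.55), with -1.55 on its second probe. Abca1, the exporter of cholesterol to apolipoproteins, fell by 2.16 (-0.66 and -0.82 to -2.93 and -2.87). Ap1s1, a small subunit of the clathrin adaptor AP-1, fell by 1.85 on 1 probe (3.79 and 3.43 to 1.87 and 1.65) and by 1.86 on the other. That both arrays of Chd4 KD lay below both controls was required for the largest falls.

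The remaining falls of the largest 15 ran from -1.85 to -2.93. Smarcd3, a BAF remodeling subunit, stood at -0.79 and -0.89 in EGFP KD and at -2.78 and -2.70 in Chd4 KD (-1.90). Arid1b, the DNA-binding BAF subunit, differed by -2.93 on its brightest probe (-1.12 and -1.21 to -4.10 and -4.09), but by 0.00 and 0.51 on its other probes, so a fall of the whole gene was not measured. Nkx6-3, a homeobox gene of the stomach, fell by 1.85 and its second probe by 1.02. Enpp3, an ectonucleotidase, Slc9b2, a sodium-proton exchanger, and Pdcl2, a phosducin-like gene of germ cells, fell by 1.91, 1.98 and 2.04. Defa27, an alpha-defensin of intestinal Paneth cells with near-identical copies, fell by 1.89, and this call was lost with slide as a block (limma adjusted p = 0.0743).

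**Figure D3:**
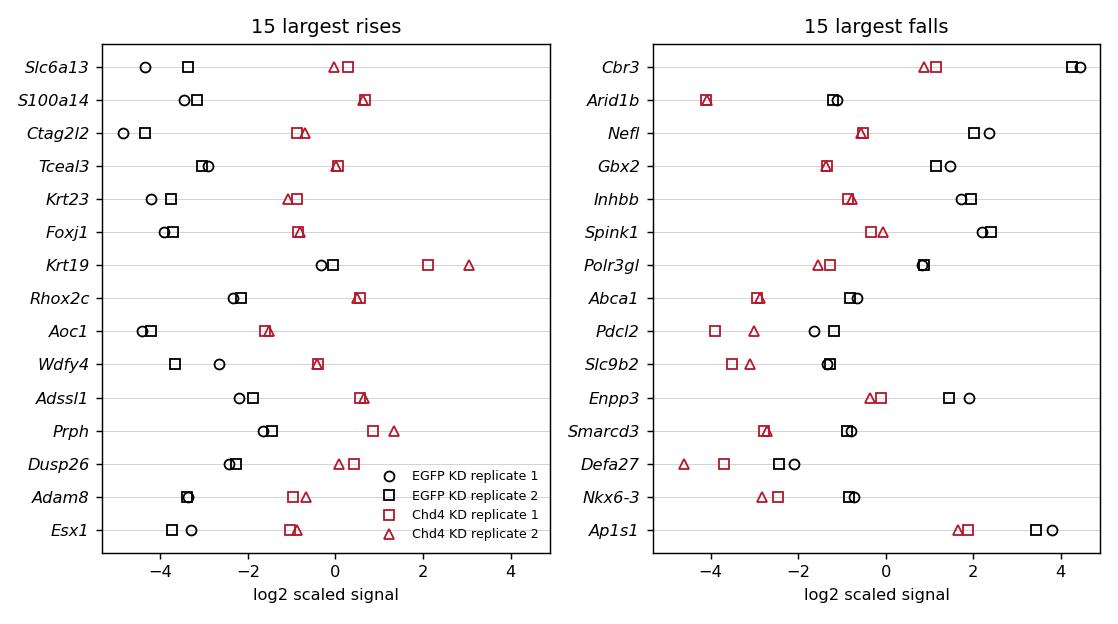
Log2 scaled signal (horizontal axis) on each of the 4 arrays for the 15 largest rises (left) and 15 largest falls (right) among called genes, with black symbols for EGFP KD, red for Chd4 KD and squares for the 2 arrays of slide 2. Only genes whose red and black symbols do not overlap could be chosen. They run from Slc6a13 (3.99) to Esx1 (2.55) and from Cbr3 (-3.33) to Ap1s1 (-1.85).

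Gene lists were chosen with earlier results of these data known, so their counts are descriptions. Every list, family and gene group counted in this report holds only genes with a symbol. Of the 19390 tested genes with a symbol 4.27% were called, 492 higher and 335 lower, a larger share than the 3.19% of all genes. Of 47 tested genes of epithelial adhesion, claudins and keratins 9 rose and 1 fell, 21.3% against 3.19% of all genes, and the median log2 fold change was 0.32 against 0.00 over all genes. Besides Krt19, its rises included Rab25, a small GTPase of apical recycling, from -0.64 and -0.94 to 0.99 and 0.68 (1.63). Cldn7, a claudin of tight junctions, went from 0.25 and 0.01 to 1.26 and 1.81 (1.40), and Krt18, the partner of Krt8 in simple epithelia, from 1.21 and 1.12 to 2.25 and 2.45 (1.18). Of the others, named after their values were seen, Cldn5, Cldn6, Dsp (desmoplakin), Ovol1 and Sfn rose by 0.65 to 0.77. Spint1, an inhibitor of membrane serine proteases, fell by 0.99. The list had 5 rises and 1 fall without the Tet1 KD and Mbd2 KD arrays, and 1 or 2 rises with any of the 4 arrays left out.

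Markers of cells that ES cells can give rise to moved in different directions. Of 26 trophectoderm and placenta genes 4 rose (15.4% called, against 3.19% of all genes), none fell and the median was 0.29, and 4 also rose without the Tet1 KD and Mbd2 KD arrays, but 1 to 3 with any of the 4 arrays left out. They were Krt19, Esx1, Krt18 and Tfap2c, a transcription factor shared by trophectoderm and germ cells, which went from 1.84 and 2.15 to 3.03 and 3.05 (1.05, adjusted p = 0.00664). Krt18 and Krt19 also belong to the epithelial list. Cdx2, a defining trophectoderm factor singled out after its values were seen, stayed near the floor, at -4.78 and -4.44 in EGFP KD and -4.86 on both Chd4 KD arrays. The summed signal of the list was 18.2 and 20.7 in EGFP KD and 35.3 and 37.8 in Chd4 KD, in units of each array's 75th percentile, and its part in the other results was not tested. Bright members weigh most in this sum, among them the called Krt18, Krt19 and Tfap2c, at 2.12 to 3.05 in Chd4 KD. Of 23 primitive and visceral endoderm genes 3 rose and 1 fell (17.4%), with a median of 0.12. Afp, alpha-fetoprotein of the yolk sac, went from -4.86 and -4.39 to -2.30 and -2.42 (2.26), Amn, an endocytic partner of cubilin, from -2.21 and -2.16 to -0.66 and -0.51 (1.60), and Hnf4a rose by 0.76. Lama1, a laminin chain of the early basement membrane, fell from 3.07 and 3.28 to 1.62 and 1.71 (-1.51). The summed endoderm signal was lower in Chd4 KD, 81.7 and 61.8 against 95.1 and 98.2, while these 3 genes rose. In primed epiblast and primitive streak, 1 of 22 rose, a share of 4.55% near the 4.27% of genes with a symbol that were called. This was Otx2, a homeobox factor of the primed epiblast, from 1.14 and 0.94 to 2.74 and 3.01 (1.84, adjusted p = 0.0133), whereas Fgf5 and T lay at or near the floor on all 4 arrays.

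The counts of the next lists stand beside 1.24% of all genes called lower and 1.95% called higher. In core and naive pluripotency 3 of 28 genes fell and none rose, and the median was -0.22. The summed signal of this list was 319 and 333 in EGFP KD and 303 and 284 in Chd4 KD. Bright probes weigh most in such a sum, and saturated probes limit what it can show. Among ES cell markers, Pou5f1 and Dppa5a were saturated on all 4 arrays. Zfp42 and Esrrb were saturated on both EGFP KD arrays and 1 Chd4 KD array. Apart from Gbx2, Manba, a lysosomal mannosidase used as an ES cell gene, went from 2.64 and 2.69 to 1.20 and 1.27 (-1.43), and Spp1, osteopontin, from 1.69 and 1.77 to 0.54 and 0.54 (-1.19). These 3 members are not the core transcription factors. The same 3 genes fell in each fit that left out 1 of the 4 arrays. In the LIF and Stat3 list 2 of 19 fell with a median of -0.21, Gbx2 and Bcl3, an NF-kappaB cofactor, from 2.85 and 2.61 to 1.83 and 2.07 (-0.78). Of 19 Nodal and Activin genes 3 fell with a median of -0.20. Gdf3, a TGF-beta ligand of ES cells, fell with Inhbb, from 4.02 and 3.70 to 2.57 and 2.65 (-1.25, with -0.53 on its second probe). The receptor-activated factor Smad3 differed by -1.14 on the brighter probe and by 0.00 on the other. Of 38 Wnt genes 3 fell with a median of 0.00. They were the receptors Fzd2, from -0.68 and -1.02 to -2.26 and -1.91 (-1.23), and Fzd10 (-0.70), and the Wnt target Sp5, from -1.24 and -1.37 to -2.26 and -2.32 (-0.98). In the Hedgehog list the effector Gli2 alone of 13 fell, from -0.28 and -0.69 to -2.27 and -2.16 (-1.73).

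Of 35 p53 targets 6 rose and 1 fell, 20% against 3.19% of all genes, with a median of 0.50. Btg2, an antiproliferative cofactor, went from -1.48 and -1.85 to -0.40 and -0.43 (1.26), and Trp53inp1, a stress-induced partner of p53, from 0.95 and 1.1 to 2.09 and 2.25 (1.15). Dusp4, a phosphatase of ERK, went from -0.98 and -1.09 to 0.41 and 0.27 (1.37), and Ddit4l, an inhibitor of mTORC1, rose by 0.98. The call of Ddit4l was lost with slide as a block (limma adjusted p = 0.0959). The other members named here were chosen after their values were seen. The proapoptotic Bbc3 (0.74) and the RNA-binding Zmat3 (0.82) rose less, and Rprm fell by 0.87. Cdkn1a and Mdm2 differed by 0.62 and 0.60 and were not called (adjusted p = 0.0643 and 0.396). The rises numbered 11 with slide as a block, 2 without the Tet1 KD and Mbd2 KD arrays, 1 with median scaling and 1 with any of the 4 arrays left out.

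Of 24 genes of the Nrf2 oxidative stress response and metallothioneins 3 fell and none rose, 12.5% called against 3.19% of all genes. The median was -0.17, and 6 of the 24 had a positive difference, against 14387 of 29839 genes in all. Some other lists leaned the same way. Positive differences numbered 3 of 28 in ribosome biogenesis (median -0.18) and 22 of 94 in ribosomal proteins (median -0.17). With Cbr3, Nqo1, a quinone reductase, fell from 0.55 and 0.52 to -0.51 and -0.58 (-1.08), and Gsta4, a glutathione transferase for lipid aldehydes, from 3.24 and 3.19 to 2.19 and 2.20 (-1.02). Other members of the list were not called, among them Txnrd1 (-0.11), Prdx1 (-0.16), G6pdx (0.03), Gclm (-0.74) and Srxn1 (-0.84). A change in Nrf2 activity was not tested. In each fit that left out 1 array, 1 gene of the list was called.

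Other lists held mixed calls. Their counts stand beside 1.95% of all genes called higher and 1.24% called lower. The calls of Mmp2, Ddx4 and Hey1, given below, were lost with slide as a block (limma adjusted p 0.0575, 0.0821 and 0.0847). In the extracellular matrix list 3 of 36 rose and 2 fell. Serpinh1, the collagen chaperone, went from -0.56 and -0.46 to 1.32 and 1.1 (1.72, adjusted p = 0.000567), Mmp2 rose by 1.28, and Timp1, an inhibitor of such proteases, fell from 2.48 and 2.32 to 1.34 and 0.82 (-1.32). Of 19 fibroblast markers Col1a1 rose from -4.29 and -4.41 to -1.80 and -1.90 (2.49) and Thy1, which ES cells also express, from 1.70 and 1.80 to 3.31 and 3.01 (1.42). Vim, vimentin, fell from 4.26 and 4.30 to 3.13 and 3.11 (-1.16), and the summed signal of these markers was 52.0 and 53.8 in EGFP KD and 51.6 and 46.2 in Chd4 KD. Of 34 germline genes Syce1, of the synaptonemal complex, rose from 1.00 and 1.14 to 2.72 and 2.68 (1.63), Rhox13 and Tex101, a testis surface protein (1.25), rose, and Ddx4, the germ cell helicase, fell by 1.03, with 1 Chd4 KD array missing. In neural genes 2 of 30 fell, Nefl and Ncam1 (-0.97), an adhesion molecule. Of 20 Notch genes the ligand Jag2 rose by 1.12 and the receptor Notch3 by 0.92, while the target Hey1 fell by 0.81. Interferon-stimulated genes moved both ways, with Rsad2 (at the floor on both EGFP KD arrays, -3.11 and -3.06 in Chd4 KD) and Oasl1 (1.14) higher and Ifitm3 lower, from 3.86 and 3.57 to 2.78 and 2.62 (-1.02).

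Among single calls of other lists, Bmp7, a BMP ligand, rose from -2.20 and -2.09 to -0.83 and -0.86 (1.30). In the cell cycle list Rb1, the retinoblastoma protein, rose from -1.59 and -1.69 to -0.87 and -0.75 (0.83), and Ccnd2, cyclin D2, fell from 0.30 and 0.25 to -1.45 and -1.13 (-1.57). Of the glycolysis and hypoxia list, Hk1, hexokinase, rose by 0.67, Car9 by 1.11, and Pfkm, phosphofructokinase of muscle, fell by 0.43. The imprinted Phlda2, a growth restrainer of the placenta, fell from 1.79 and 1.51 to 0.54 and 0.20 (-1.28). The amino acid transporter Slc7a3, for cationic amino acids, fell from 4.14 and 3.88 to 2.84 and 3.07 (-1.06). Apart from Chd4, no member of 14 tested NuRD subunits was called, with Mbd3 at 4.33 and 4.49 in EGFP KD and 4.31 and 4.17 in Chd4 KD, and Hdac1 at 4.81 and 4.73 and at 4.68 and 4.94. None was called in limma among 15 other chromatin remodelling ATPases, 17 DNA methylation and oxidation genes, 26 Polycomb genes, 35 Hox genes, 28 histone genes, 17 two-cell stage genes, 20 unfolded protein and heat shock genes and 28 ribosome biogenesis genes, and their medians lay between -0.19 and 0.13.

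**Figure D4:**
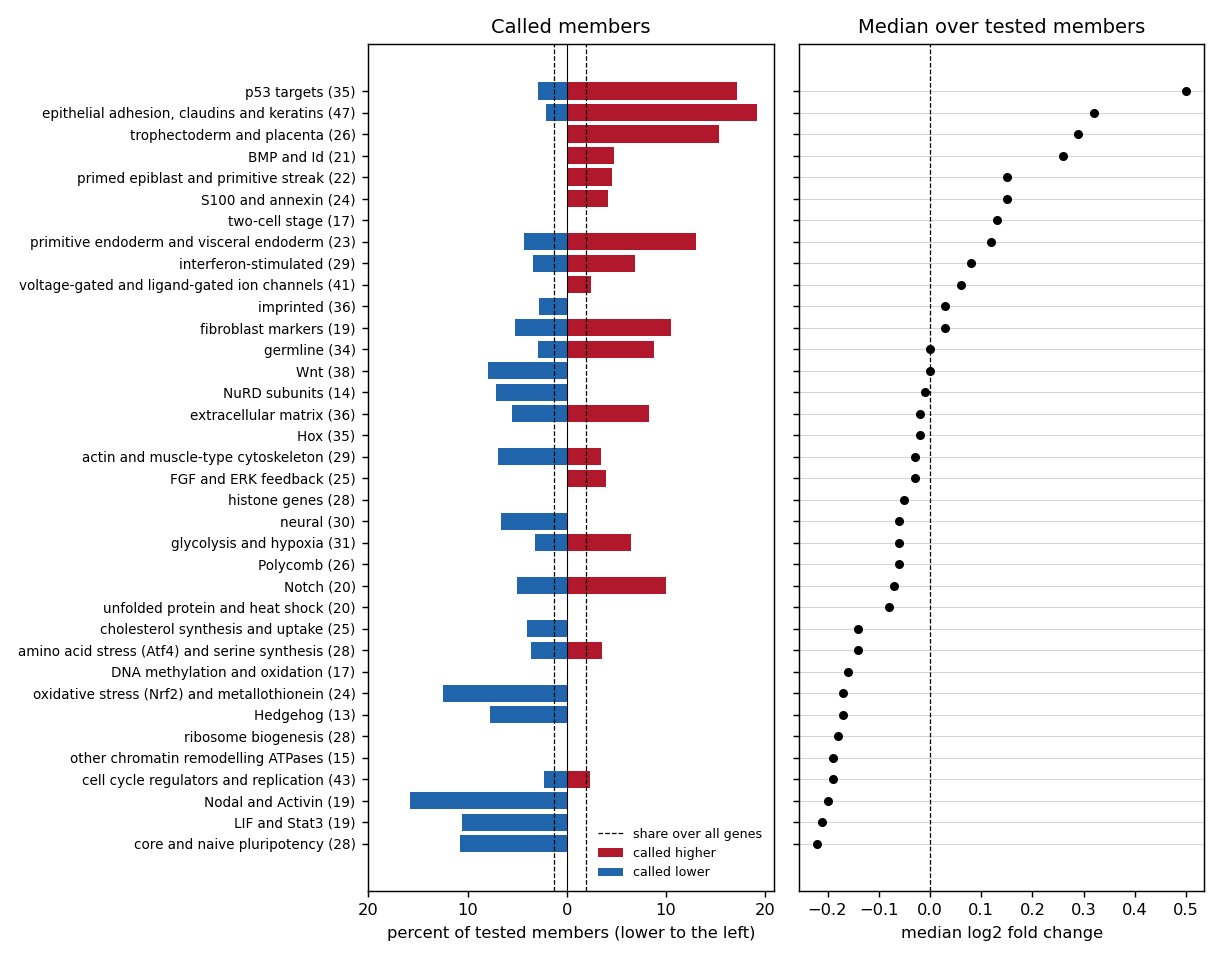
For each gene list (rows, number of tested members in parentheses), the percent of members called higher (red, to the right) or lower (blue, to the left) in Chd4 KD, with dashed lines at the shares over all genes, 1.95% and 1.24%, and beside it the median log2 fold change. p53 targets (0.50) and epithelial genes (0.32) have the highest medians and core and naive pluripotency (-0.22) the lowest.

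Whole families were read in the same way, beside 3.19% of all genes called, 1.95% higher and 1.24% lower. Of genes with a symbol 4.27% were called. Of 358 solute carriers 14 rose and 6 fell (5.59%), among them Slc5a4b, of the sodium-glucose carrier family, from -1.80 and -1.48 to -0.17 and 0.03 (1.57). Slc16a13, a monocarboxylate carrier, differed by 1.70 on its brighter probe and by -0.05 on the other. Of 70 genes of the homeobox and paired box families outside Hox, Otx2 and Irx3 (at the floor on both EGFP KD arrays) rose, and the falls included Six4 (-0.70) and Nkx6-3. The calls of Slc5a4b and Irx3 were lost with slide as a block (limma adjusted p 0.0522 and 0.0709). Zinc finger genes of the Zfp series split into 5 rises and 7 falls of 356 (3.37%), a share close to that of all genes and below that of genes with a symbol. Of 853 olfactory receptors 4 rose (0.469%). Of 12 PP2A B subunits Ppp2r2c rose, from -1.53 and -1.36 to 0.69 and 1.01 (2.30, adjusted p = 0.00127). The serpins rose in 2 of 50, Serpinh1 and Serpine2, an inhibitor of thrombin and plasminogen activators, from -3.83 and -4.08 to -1.73 and -1.39 (2.40). Aldh1l1, a folate enzyme of astrocytes, was the only one of 21 aldehyde dehydrogenases called, from -0.47 and -0.51 to 1.03 and 1.46 (1.73).

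Of 70 receptors of the Gpr series 4 rose and none fell (5.71%, against 3.19% of all genes called). Gpr143, the pigment cell receptor of ocular albinism, lay at the floor on both EGFP KD arrays, which gives its difference no exact size, and at -3.35 and -3.40 in Chd4 KD, and Gpr162 went from -1.23 and -0.88 to -0.05 and -0.07. Gpr137b differed by 1.17 on its brighter probe but by -0.30 and 0.04 on the others. Of 65 Rab GTPases, Rab3b, of regulated exocytosis, rose from -0.97 and -0.98 to 0.64 and 0.55 (1.57) and Rab43 from -1.30 and -1.05 to -0.01 and 0.05 (1.20), and Rab3d fell by 0.84, with -0.21 on its second probe. P2rx4, an ATP-gated channel, rose from -1.36 and -1.46 to -0.07 and -0.15 (1.30), and Sema7a, a membrane-anchored semaphorin, from -1.82 and -1.89 to -0.87 and -0.60 (1.12). Myl9, a regulatory myosin light chain, rose from -0.68 and -0.82 to 0.67 and 0.98 (1.57). Tpm1, tropomyosin, differed by -1.80 on its brightest probe, and its other probes ran from -1.79 to 0.39. Rpl39l, a ribosomal protein of testis, fell from 3.79 and 3.58 to 2.94 and 2.54 (-0.95), the only call among 94 ribosomal protein genes. Atf3, a stress-induced transcription factor, rose by 0.93 from -3.09 and -3.12 to -2.12 and -2.24. Among zinc finger genes Zfp750, a regulator of epidermal differentiation, rose from -3.15 and -3.36 to -2.26 and -2.06 (1.09). With slide as a block the calls of Rab43, Rpl39l and Zfp750 were lost (limma adjusted p 0.0505, 0.063 and 0.0573).

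Some differences were large and not called. At least 2-fold differences with no overlap between the 2 groups were found in 1086 genes that missed the threshold, 895 higher and 191 lower. Over all tested genes, 37.8% had no overlap at any size of difference. EGFP KD replicate 1 had 4488 genes at the floor, against 2106 on EGFP KD replicate 2 and 2000 and 2631 on the Chd4 KD arrays. The part of this in the excess of higher genes was not tested. Chd4 KD replicate 2 had 25 genes at the floor that lay above the 75th percentile on the other 3 arrays, none of them called, among them Bptf, a remodeling subunit of NURF, at 3.75 and 3.81 in EGFP KD, 3.49 on Chd4 KD replicate 1 and -4.86 on replicate 2. EGFP KD replicate 2 had 2 such genes and the other arrays none.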

How the data were processed

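RNA of each dish was amplified, labelled with 1 dye and hybridised to an Agilent 4 x 44K mouse array. The authors deposited the scanner's output, whose processed intensity was corrected for local background by Feature Extraction 10.7.1.1 and not normalized between arrays. A further deposited table, read only as an alternative, matched log2-transformed quotients of log2 signals over EGFP KD, a compressed scale that is not a log2 fold change.

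Spots with an outlier mark and 1377 control spots were left out. Each intensity was scaled to the 75th percentile of its array (1784.5 to 2451.6 over 12 arrays), set to at least 0.0344 and log2 transformed, and spots of 1 probe were averaged. Probes had to exceed background clearly on 2 arrays of a group, and the brightest probe stood for its gene. Accessions were named through RefSeq of GRCm38.p6, and 19390 of 29839 tested genes had a symbol. limma 3.58.1 (R 4.3.3) fitted a linear model, the tool the study's methods name, here with all 6 groups and Benjamini-Hochberg adjustment over all genes. The steps were tested on simulated data. A fold for a gene below background on both arrays of a group is a bound against the floor. Nothing says whether the 2 arrays of a group came from separate cultures beyond the methods' words biological replicates, so p-values measure the spread between these arrays.

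The genes named are Chd4, the 15 largest rises and falls among called genes measured on all 4 arrays without overlap, up to 4 called genes per list or family, and the 5 largest bounds, which besides Xlr5b, Cfap43 and Tnnt2 were Adora1 (at least 3.26-fold) and 1700012B07Rik (at least 2.40-fold). Genes outside this rule (further members of the epithelial, p53, homeobox and X-linked families, Bptf and the genes of the additional observations) were chosen after their values were seen. The members and the gene lists were chosen with earlier results of these data known. Alternatives were quantile normalization, median scaling, normexp (offset 50) on the median signal, filters on dim probes, the mean of a gene's probes, slide or replicate number as a block, fewer arrays, eBayes with trend and robust set, stricter thresholds and the authors' table. Promoters were matched by symbol for 15383 genes. Some called genes are not reported here.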

Additional observations from a re-analysis of the deposited data

How the results depend on the processing

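The 952 calls became 0 in the fit to only the 4 arrays, where the smallest adjusted p was 0.163 and 3765 genes had an unadjusted p under 0.05 (3814 with all arrays), 509 without the Tet1 KD and Mbd2 KD arrays, 374 at an adjusted p under 0.01 and 589 with an absolute log2 fold change of at least 1. With 1 of the 4 arrays left out they numbered 318 to 505, with the lone array assumed to vary like the other groups (318 without EGFP KD replicate 1, 329 without Chd4 KD replicate 2, 478 without Chd4 KD replicate 1, 505 without EGFP KD replicate 2). The authors' table, whose values are compressed and which leaves out the spread of the control, gave 4214 of 7425 genes. The other alternatives gave between 668 and 1294 calls. Median scaling moved the median of all genes by -0.10, with 755 calls, 55.2% of them higher. The replicate block gave 1282, and the numbers were not taken to pair the arrays, since same-numbered deviations correlated at -0.0355 between EGFP KD and Chd4 KD and at -0.04 to 0.767 over all 15 pairs of groups. Chd4 kept its direction throughout and lost its call at -1.08 with quantile normalization, at -1.28 with only the 4 arrays and without the Tet1 KD and Mbd2 KD arrays, and at -1.55 to -1.01 with 1 array left out. Of the 116 named genes, 41 were called in all 4 fits with 1 array left out, 104 with slide as a block and 71 without the Tet1 KD and Mbd2 KD arrays. Krt10 (main -0.55) became 0.19 and Cfap43 -0.17 under normexp, where the cause was not tested, and Cfap43 became -0.10 where a probe had to be well above background on all 4 arrays, since another probe then stood for the gene. With 2 arrays per group, the number of arrays limits every value.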

Other observations

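Further gene groups, put together by symbol after the values were seen and counted whole with no test, held called genes, where 1.95% of all genes were called higher and 1.24% lower. Of 41 tested genes of myosin chains, myosin-binding proteins, myomesins and troponins 10 rose and none fell, with a median log2 fold change of 0.44. Myl4, the embryonic and atrial myosin light chain, stood at 1.09 and 1.17 in EGFP KD and at 3.65 and 3.38 in Chd4 KD (2.38, limma adjusted p = 0.000686), and the cardiac heavy chain Myh7 went from -2.11 and -1.88 to 0.02 and 0.07 (2.04). Tnnt2, cardiac troponin T, was below background on both control arrays and at -3.43 and -3.26 in Chd4 KD, at least 2.85-fold higher. Of 7 genes of the Crabp and Rbp retinoid-binding series 4 rose, among them Crabp1 from -1.28 and -1.21 to 0.85 and 0.57 (1.96) and Crabp2 from 1.80 and 1.94 to 2.93 and 2.84 (1.02). Of 15 carbonic anhydrases 4 rose, the most Car6, a secreted form, from -3.79 and -3.67 to -1.57 and -1.50 (2.20). Of 29 major histocompatibility genes H2-Oa, H2-Q7 and H2-D1 rose by 1.04 to 1.46, and of 37 interleukin receptor genes 3 rose and 1 fell. Il5ra rose from -1.49 and -1.54 to 0.78 and 0.66 (2.24), Il1r2 by 2.06 and Il2rg, with 1 Chd4 KD array missing, by 1.73, and Il11ra1 fell by 0.98.

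Other groups split. Of 10 type III and IV intermediate filament genes Prph rose, while Nefl, Vim and Ina, alpha-internexin (2.62 and 2.59 to 1.60 and 1.63, -0.99), fell. Of 55 motile cilium genes Foxj1, Efhc2 (2.10), Dnaic2 (1.1) and Cfap43 rose, and the falls included Dnaaf3 (-0.96). Cfap43 was below background on both control arrays, at least 6.39-fold higher on that probe and at -0.10 on its second probe. Of 20 clathrin adaptor subunits Ap1s1, Ap2s1 (2.65 and 2.68 to 1.11 and 1.02, -1.60) and Ap3m2 (-1.26) fell, and Ap1s3 (1.03) and Ap3b2 (1.16) rose. Of 29 BAF subunits none rose and Arid1b on 1 probe, Smarcd3, Bcl7a (-1.23) and Bicral (-0.90) fell. Alpha-defensins fell in 4 of 12, by 1.22 to 1.89, and, as near-identical copies, may share signal on a probe. The glutathione transferases Gstt1 (1.69), Gstk1, Gstm5 and Gsto1 rose while Gsta4 fell, 5 of 21 in all.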
